A study of Mus musculus with 8 samples.

Results

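The 44 genes described here encode the enzymes and regulators that keep 3T3-L1 cells reduced. They comprise the transcription factor NRF2 (Nfe2l2) and its inhibitor KEAP1, NRF2 target enzymes, the genes of glutathione synthesis and use, the thioredoxin and peroxiredoxin systems, superoxide dismutases and catalase, the NADPH-producing pentose phosphate pathway and the ferritins. They were taken by symbol from the 23699 entries that each library lists, and all 44 were found. RNA sequencing had been run on 3T3-L1 preadipocytes, a mouse fibroblast line that can be made to differentiate into adipocytes, at 2 days after confluence and before any induction of differentiation. The siFto group of 4 libraries was transfected with 3 pooled Stealth siRNAs, a kind of chemically stabilised duplex, against Fto, and the siCtr group of 4 libraries with 3 pooled non-targeting ones. Both groups received 40 nM siRNA in a lipid reagent for 24 hours before confluence, so both carry transfection, and no untransfected cells were analysed here. Fto encodes a dioxygenase that removes methyl groups from RNA. The comparison asks how far the redox genes differ once Fto mRNA is lowered.

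As background, NRF2 is held in the cytoplasm by KEAP1 and degraded until electrophiles or oxidants modify KEAP1. It then enters the nucleus, pairs with small MAF proteins and binds antioxidant response elements, which switch on Nqo1, Hmox1, Gclm, Gclc, Slc7a11, Txnrd1, Srxn1 and several glutathione transferases. Glutathione and thioredoxin are both reduced with electrons from NADPH, and they feed the glutathione peroxidases and the peroxiredoxins, which remove hydrogen peroxide. Ferritin stores iron in a form that cannot generate radicals.

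FPKM, the unit used throughout, are fragments scaled by the length of the transcript and by the mapped fragments of the library, so levels of different genes can be compared per length. All means and SDs are over n = 4 libraries, and a fold change is on the log2(FPKM + 0.5) scale, siFto over siCtr. Of the 44 genes, 43 passed the filter of a mean FPKM of at least 1 and were tested. A gene was called where limma's adjusted p over all 11398 tested genes was under 0.05.

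The start regions of 4 genes are shown because they belong to the NRF2 targets that moved in opposite directions, Nqo1 and Gclm upward and Srxn1 and Txnrd1 downward. Each runs 5′ to 3′ from 250 bases before the start to 50 bases after it, from RefSeq on GRCm38.p6, and capitals mark the core of the antioxidant response element, TGACNNNGC, searched on both strands. The 3 matches shown are all on the opposite strand and so read GCNNNGTCA. The regions are chr8:107403156-107403455 on the minus strand for Nqo1, chr3:122245307-122245606 on the plus strand for Gclm, chr2:152105274-152105573 on the plus strand for Srxn1, and chr10:82858956-82859255 on the plus strand for Txnrd1, which is the one of its 3 listed starts with a match.
Nqo1: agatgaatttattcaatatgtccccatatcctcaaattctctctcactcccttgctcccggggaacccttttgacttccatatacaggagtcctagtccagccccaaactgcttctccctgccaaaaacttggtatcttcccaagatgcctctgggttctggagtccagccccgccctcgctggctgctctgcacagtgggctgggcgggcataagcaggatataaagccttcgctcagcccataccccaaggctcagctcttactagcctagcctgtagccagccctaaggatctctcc
Gclm: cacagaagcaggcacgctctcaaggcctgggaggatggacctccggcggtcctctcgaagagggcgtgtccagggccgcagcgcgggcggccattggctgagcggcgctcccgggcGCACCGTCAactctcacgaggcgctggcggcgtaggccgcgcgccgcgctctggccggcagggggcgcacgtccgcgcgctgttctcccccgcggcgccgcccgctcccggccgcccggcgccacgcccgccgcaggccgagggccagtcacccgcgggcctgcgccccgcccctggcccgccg
Srxn1: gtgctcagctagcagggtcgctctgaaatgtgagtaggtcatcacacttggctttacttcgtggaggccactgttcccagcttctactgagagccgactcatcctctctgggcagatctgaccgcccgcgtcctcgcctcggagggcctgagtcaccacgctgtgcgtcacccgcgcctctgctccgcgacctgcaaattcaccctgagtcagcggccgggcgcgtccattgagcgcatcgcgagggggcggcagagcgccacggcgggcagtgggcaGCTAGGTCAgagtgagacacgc
Txnrd1: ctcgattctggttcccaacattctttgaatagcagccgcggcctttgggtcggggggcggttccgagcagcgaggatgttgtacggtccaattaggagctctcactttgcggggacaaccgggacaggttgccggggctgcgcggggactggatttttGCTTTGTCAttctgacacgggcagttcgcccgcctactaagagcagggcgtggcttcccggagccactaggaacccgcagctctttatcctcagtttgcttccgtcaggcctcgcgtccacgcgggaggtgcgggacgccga

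The match begins at position -134 in Gclm, at position 29 in Srxn1 and at position -92 in Txnrd1, where position 1 is the first transcribed base. Those letters do not occur in the window shown for Nqo1, which says nothing of more distant sites. Promoters of 38 of the 44 genes were in the RefSeq table, and 10 of them (26.3%) held the core, against 17.1% of the 8082 tested genes matched and 14% of all 27025 genes of the table. Counted per listed start, it was 10 of 48 promoters of the redox genes (20.8%), against 12.4% of all 32851. By call, the core was in 1 of 2 genes called higher, 2 of 8 matched genes called lower and 7 of 27 not called. The matches are letters in a window and were not tested as sites.

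Fto mRNA was 13.8, 10.7, 12.3 and 11.6 FPKM in the siFto libraries, against 54.6, 55.4, 56.2 and 55.2 FPKM in the siCtr libraries (log2 fold change -2.15, SE 0.06, limma adjusted p = 7.3e-08; exact two-sided permutation p = 0.0286, the smallest that 4 against 4 allow). About 21.9% of the control level was left, so the siFto group is a knockdown and not a loss of the gene. Relative depth, read from the width of the deposited intervals, ran from 0.88 to 1.01 in siFto and 0.95 to 1.13 in siCtr. The siCtr replicate 3 library stood apart for these genes: it was the highest control for 36 of the 43 tested redox genes, against 40.4% of all tested genes, and its FPKM summed to 484842, against 454737 to 462360 in the other controls. Leaving it out kept 11 of the 12 calls given below and gave 4 higher and 10 lower. Over all tested genes it gave 941 higher and 1433 lower, against 794 and 1401 in the main fit. What changes without it is given beside each gene. In the siFto group, replicate 4 was the highest library for 22 of the 43 genes, against 31.3% of all tested genes. Its FPKM summed to 473898, against 456022 to 462742 in the other siFto libraries. Leaving out siFto replicate 4 kept 10 of the 12 calls. The 8 markers of preadipocytes and fibroblasts were all above 1 FPKM and summed to 9250 to 10168 FPKM in siFto and 8571 to 8946 FPKM in siCtr, with 3 called higher and 2 lower. Those called higher were Col1a1, Col1a2 and Ly6a, and those called lower Pdgfra and Pdgfrb. The calls of Ly6a and Pdgfra held under all 16 alternatives. Col1a1 lost its call under 9 alternatives, Col1a2 under 7 and Pdgfrb under 6. Markers of mature adipocytes summed to 53.4 to 65.8 FPKM in siFto and 51.1 to 81.7 FPKM in siCtr, mostly Fabp4. Macrophage markers summed to 20.9 to 21.9 FPKM in siFto and 22.2 to 29.6 FPKM in siCtr, mostly Lyz2, with Emr1 listed at 0. Lyz2 was called lower (log2 fold change -0.50, limma adjusted p = 0.00316), and that call held under all 16 alternatives. Epithelial markers summed to 0 to 0.042 FPKM in siFto and 0.74 to 1.29 FPKM in siCtr, mostly Krt14, with Epcam and Krt18 listed at 0. Endothelial and muscle markers summed to at most 2.23 FPKM in any library, with Myod1 listed at 0. The part of these markers in the results was not tested. Whether the replicates were separate cultures is not stated in the labels, and the p-values measure the spread between these libraries, which can be technical.

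Both directions were present among the redox genes, and most of them did not pass the test. Nqo1 and Gclm rose with Fto siRNA, while Txnrd1, Srxn1, Prdx4, Prdx6, Gpx8, Gstm1, Gsto1, Gstt1, Sod3 and Tkt fell, and 31 genes were not called. The changes were small, with log2 fold changes of -0.42 to 0.36. The 2 rises are 4.65% of the 43 tested genes, against 6.97% of all tested genes called higher. The 10 falls are 23.3% of the 43, against 12.3% of all tested genes called lower. Each role holds 2 to 10 tested genes, so the counts by role below are descriptions and were not tested against these shares. All 4 siFto libraries lay above all 4 siCtr libraries for the 2 genes that rose (9.08% of all tested genes did so), and all 4 lay below for 12 genes, the 10 that fell plus Prdx2 and G6pdx (15.1% of all tested genes). The median log2 fold change of the 43 genes was -0.06, against -0.02 over all tested genes, and 26 of them (60.5%, against 55.3% of all) were below 0. The median of the redox genes (-0.0570) shrank to -0.0168 without siCtr replicate 3, -0.0202 without siFto replicate 2, -0.0301 without siFto replicate 1, -0.0343 without siCtr replicate 2 and -0.0361 without siCtr replicate 4, and to -0.0160 with quantile normalization. The median over all tested genes was -0.0118 without siCtr replicate 3 and 0.0054 with quantile normalization. At an unadjusted limma p under 0.05 there were 7 higher and 15 lower. The same count was not made over all tested genes, so these numbers have no background to be set against. Without siFto replicate 2 the falls numbered 6, and those of all tested genes 1059 (1401 in the main fit). The rises numbered 1 without any one of siCtr replicates 2 and 4 and siFto replicates 1, 3 and 4. Those of all tested genes then numbered 550 to 622 (794 in the main fit). Without siCtr replicate 3 the rises numbered 4, and those of all tested genes 941. In bulk RNA, fewer cells of a type and less RNA per cell cannot be told apart. Over all tested genes 36.2% of the calls were higher ones (794 higher and 1401 lower). That share was 47.1% with median-ratio scaling (1086 and 1218) and 47.4% with quantile normalization (1086 and 1207). Under these scalings the redox genes gave 3 higher and 9 lower, and 5 higher and 11 lower.

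**Figure D1:**
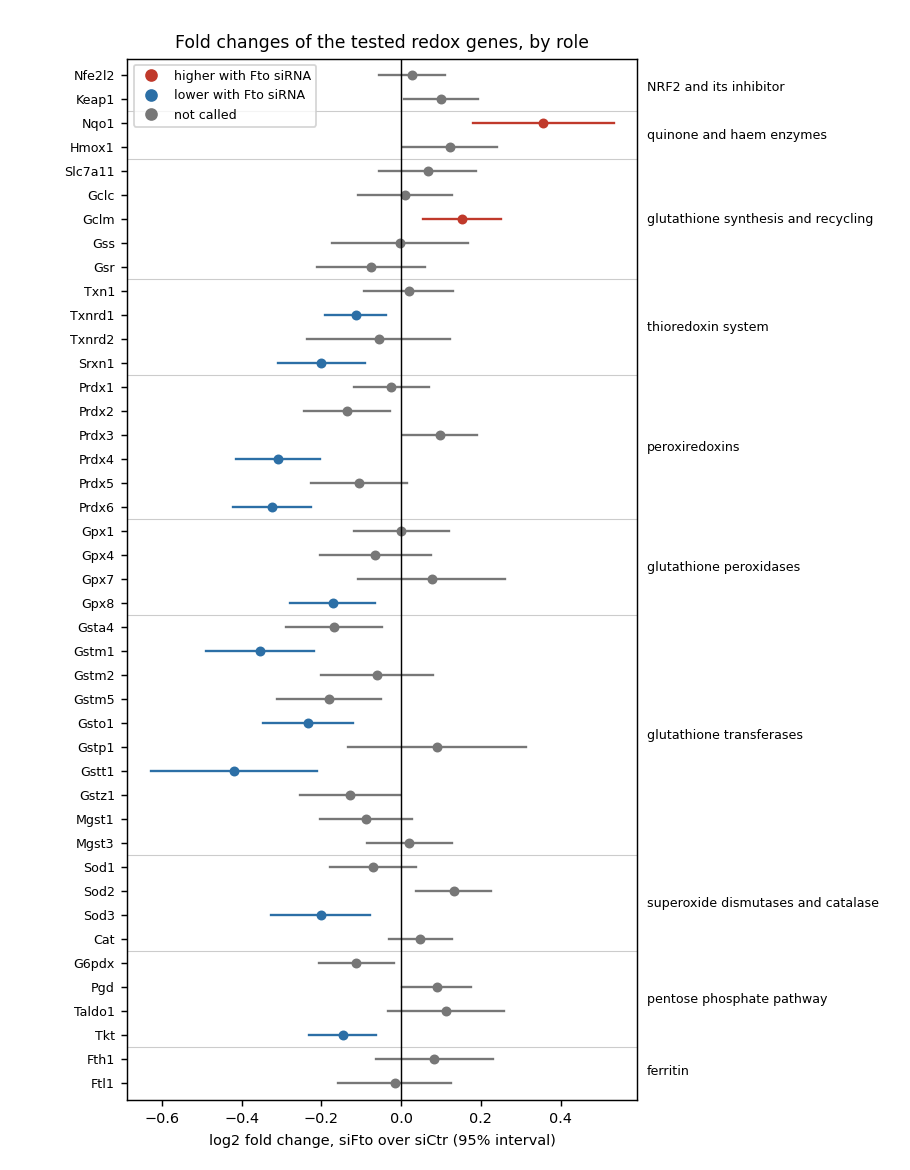
Fold changes of the 43 tested redox genes grouped by role, as log2 of siFto over siCtr on the horizontal axis, with points for the estimates and bars for their 95% intervals. Red points mark Nqo1 and Gclm, which rose, blue points the 10 genes that fell, and grey points the 31 not called, which lie between -0.18 and 0.13.

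The redox genes were among the abundant transcripts of these cells. Their median level was 64.0 FPKM over the 8 libraries, against 15.1 FPKM for all tested genes, and 38 of the 43 lay above that value, 15 of them above 100 FPKM. Fth1, the ferritin heavy chain that oxidizes iron for storage, was the most abundant transcript in every library, at 6739 ± 260 FPKM in siFto and 6370 ± 466 FPKM in siCtr. Ftl1, the light chain, stood between rank 23 and rank 26 with 1285 ± 72.2 FPKM in siFto and 1300 ± 104 FPKM in siCtr. Neither ferritin was called (Fth1 0.08 on the log2 scale, adjusted p = 0.426, and Ftl1 -0.02, adjusted p = 0.892). Both have processed copies elsewhere in the genome, so their values are uncertain where the counting could split reads. At the other end Gpx3, the secreted plasma glutathione peroxidase, averaged 0.243 FPKM in siFto and 0.194 FPKM in siCtr and was not tested.

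**Figure D2:**
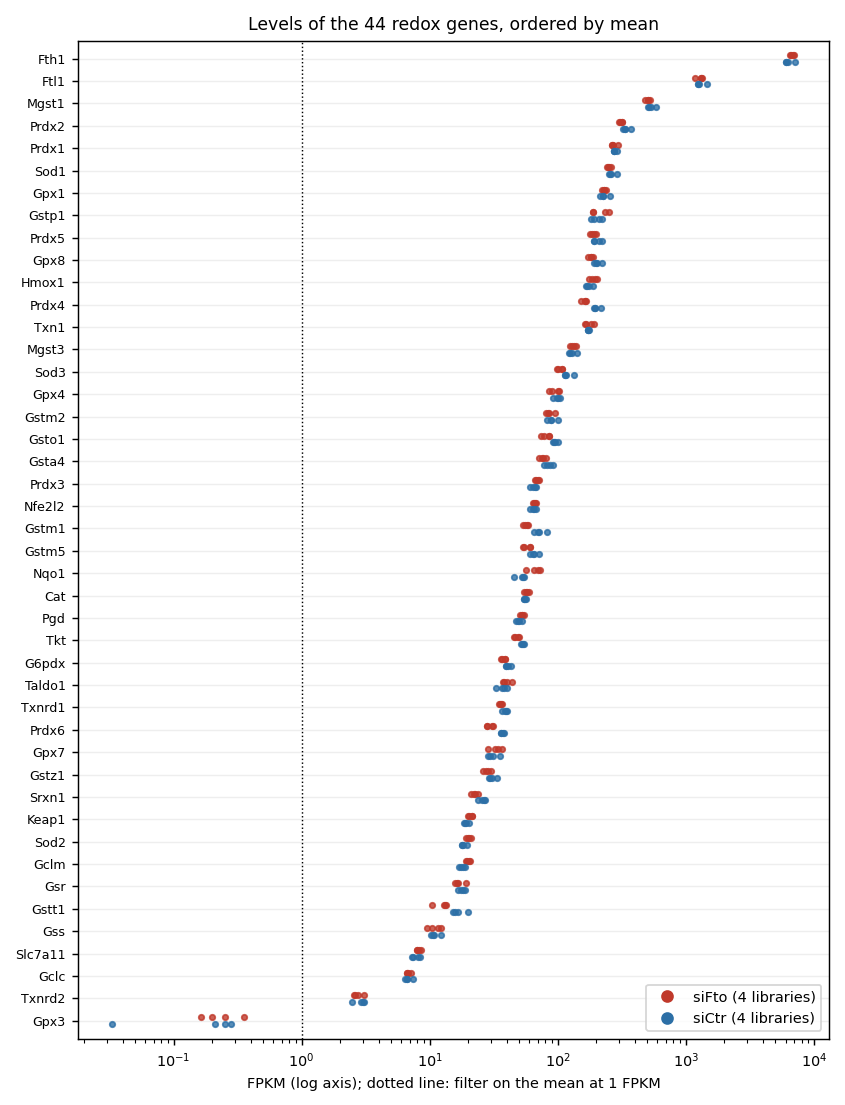
FPKM of the 44 redox genes in every library on a log axis, ordered by mean level, with red points for the 4 siFto libraries and blue points for the 4 siCtr libraries. Levels run from 0.0333 FPKM for Gpx3 to 7054 FPKM for Fth1, and for most genes the 2 groups overlap at this scale.

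Nfe2l2 mRNA, which encodes NRF2 itself, did not pass the test. It was 65.9, 67.2, 64.2 and 64.9 FPKM in the siFto libraries, against 63.8, 65.3, 67.6 and 61.0 FPKM in the siCtr libraries, and the groups overlap fully. The log2 fold change was 0.03 (SE 0.04, limma adjusted p = 0.667), with a 95% interval of -0.06 to 0.11. Keap1, the adaptor that marks NRF2 for degradation, had 21.4, 19.8, 20.2 and 21.5 FPKM in siFto libraries, against 19.0, 19.3, 20.2 and 18.6 FPKM in siCtr libraries. Only siCtr replicate 3 reached into the siFto range, and the log2 fold change of 0.10 (SE 0.04, adjusted p = 0.123) was not called. The mRNA levels do not measure NRF2 protein, its location or its activity.

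Nqo1, the quinone reductase that is widely read as a marker of NRF2 activity, rose the most of the redox genes. It had 56.6, 72.3, 65.3 and 70.4 FPKM in the siFto libraries, against 45.4, 53.7, 54.1 and 52.7 FPKM in the siCtr libraries. Every siFto library was above every siCtr library, with siFto replicate 1 and siCtr replicate 1 the lowest of their groups. The means were 66.2 ± 7.03 FPKM in siFto and 51.5 ± 4.05 FPKM in siCtr. The log2 fold change was 0.36 (SE 0.08, limma adjusted p = 0.0119), and the call held under every alternative (adjusted p 0.00227 to 0.0406). Its locus is chr8:109912125-109927105 in mm9. Hmox1, which breaks down haem to biliverdin, iron and carbon monoxide, averaged 189 ± 12.2 FPKM in siFto and 174 ± 9.38 FPKM in siCtr. The groups overlapped and the log2 fold change of 0.12 was not called (adjusted p = 0.141), whereas without siCtr replicate 3 it was (0.16, adjusted p = 0.0489). Quantile normalization with all 8 libraries also gave that call (adjusted p = 0.0313).

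Of the 5 genes of glutathione synthesis and recycling, Gclm rose and 4 were not called. Gclm encodes the modifier subunit of glutamate-cysteine ligase, the rate-limiting enzyme of glutathione synthesis, and lies at chr3:121948510-121969566 in mm9. It had 19.7, 19.1, 20.1 and 20.8 FPKM in siFto libraries, against 18.9, 16.8, 17.7 and 18.1 FPKM in siCtr libraries. The gap between the lowest siFto and the highest siCtr library was narrow, 19.1 against 18.9 FPKM. The log2 fold change was 0.15 (SE 0.04, limma adjusted p = 0.0372). The call was lost without any one of siCtr replicates 2, 3 and 4 or siFto replicates 1, 3 and 4 (adjusted p up to 0.106). It was also lost without the filter on low values (0.0584) and with a replicate block (0.0504). Gclc, the catalytic subunit of the same ligase, was at 6.81 ± 0.230 FPKM in siFto and 6.77 ± 0.433 FPKM in siCtr (log2 fold change 0.01, adjusted p = 0.924), so the modifier was called and the catalytic subunit was not. Whether the 2 subunits differ in their response was not tested. Slc7a11, the cystine importer that supplies cysteine for glutathione, was at 8.17 ± 0.303 FPKM in siFto and 7.79 ± 0.541 FPKM in siCtr (0.07, adjusted p = 0.442). Gss, which completes glutathione, ranged from 9.57 to 12.2 FPKM in siFto and from 10.2 to 12.2 FPKM in siCtr (-0.00, adjusted p = 0.98). Gsr, which reduces oxidized glutathione, was at 17.0 ± 1.45 FPKM in siFto and 17.9 ± 0.922 FPKM in siCtr (-0.08, adjusted p = 0.429).

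Of the 4 genes of the thioredoxin system, Srxn1 and Txnrd1 were called lower and the other 2 were not called (12.3% of all tested genes were called lower). Srxn1, sulfiredoxin, which repairs over-oxidized peroxiredoxins, had 21.1, 22.2, 22.4 and 23.6 FPKM in siFto libraries, against 23.8, 25.5, 27.0 and 26.7 FPKM in siCtr libraries. No siFto library reached the lowest control, siCtr replicate 1. Its log2 fold change was -0.20 (SE 0.05, limma adjusted p = 0.0178), and without siCtr replicate 4 the adjusted p was 0.0522. Srxn1 lies at chr2:151931466-151937089 in mm9. Txnrd1, the cytosolic thioredoxin reductase, had 36.5, 35.1, 35.0 and 36.2 FPKM in siFto libraries, against 39.8, 38.9, 36.9 and 39.2 FPKM in siCtr libraries. The siCtr replicate 3 library, high for most redox genes, was here the lowest control and lay just above the siFto range. The log2 fold change of Txnrd1 was -0.11 (SE 0.03, adjusted p = 0.044), the smallest of the called changes, and the call was lost under 11 of 16 alternatives, among them both other scalings and the removal of any one library but siCtr replicate 3 (adjusted p up to 0.113). Txn1, thioredoxin itself, was at 175 ± 13.4 FPKM in siFto and 173 ± 2.11 FPKM in siCtr (0.02, adjusted p = 0.837). Txnrd2, the mitochondrial reductase, was low at 2.74 ± 0.225 FPKM in siFto and 2.88 ± 0.269 FPKM in siCtr (-0.06, adjusted p = 0.674). Without strand, not given in the sources used here, the reads of genes that overlap cannot be told apart, so the Txnrd2 value is uncertain. The locus of Txnrd1 overlaps Eid3, which reaches 0.487 FPKM.

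Of the 6 peroxiredoxins, Prdx4 and Prdx6 fell and the other 4 were not called. Prdx4, the peroxiredoxin of the endoplasmic reticulum, which couples peroxide removal to disulfide formation in secreted proteins, had 162, 152, 167 and 163 FPKM in siFto libraries, against 192, 195, 218 and 195 FPKM in siCtr libraries. All siFto libraries were below all siCtr libraries, by more than the range within siFto. Its log2 fold change was -0.31 (SE 0.05, limma adjusted p = 0.00195). Prdx6, the 1-cysteine peroxiredoxin, which takes its electrons from glutathione and also repairs oxidized phospholipids, had 31.0, 28.1, 27.8 and 30.7 FPKM in siFto libraries, against 35.7, 36.2, 38.2 and 37.4 FPKM in siCtr libraries. Its groups were as clearly apart, with a log2 fold change of -0.32 (SE 0.04, adjusted p = 0.000967, the lowest among the redox genes). Both calls held under every alternative (adjusted p up to 0.00811 for Prdx4 and 0.00529 for Prdx6). Prdx4 lies at chrX:151758463-151772997 and Prdx6 at chr1:163170243-163181297 in mm9.

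The other peroxiredoxins include the most abundant of the family. Prdx2, cytosolic like Prdx1, was at 298 to 320 FPKM in siFto libraries and 323 to 374 FPKM in siCtr libraries. Its groups did not overlap, but the log2 fold change of -0.14 gave an adjusted p of 0.0777 and was not called. Prdx1 was at 274 ± 13.6 FPKM in siFto and 278 ± 8.22 FPKM in siCtr (-0.02, adjusted p = 0.73). Prdx3, the mitochondrial form, was at 68.8 ± 2.66 FPKM in siFto and 64.3 ± 2.83 FPKM in siCtr (0.10, adjusted p = 0.139). Prdx5, found in mitochondria, peroxisomes and cytosol, was at 188 ± 8.49 FPKM in siFto and 203 ± 14.8 FPKM in siCtr (-0.11, adjusted p = 0.203).

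Of the 4 tested glutathione peroxidases, Gpx8 fell and 3 were not called. Gpx8, like Prdx4 an enzyme of the endoplasmic reticulum, had 171, 182, 182 and 189 FPKM in siFto libraries, against 203, 199, 220 and 193 FPKM in siCtr libraries. The groups were separated by 189 against 193 FPKM at their nearest libraries. The log2 fold change was -0.17 (SE 0.05, limma adjusted p = 0.0294). The call was lost without any one of siCtr replicates 1 and 2 and siFto replicates 1, 2 and 3 (adjusted p up to 0.079). It was also lost without the filter on low values (0.0616) and with a replicate block (0.0543). Gpx7, the other peroxidase of the endoplasmic reticulum, was at 32.9 ± 3.60 FPKM in siFto and 31.1 ± 2.98 FPKM in siCtr (0.08, adjusted p = 0.572). Gpx1, the abundant cytosolic selenoenzyme, was at 230 ± 5.88 FPKM in siFto and 230 ± 18.7 FPKM in siCtr (-0.00, adjusted p = 0.997). Gpx4, which removes lipid peroxides and guards against ferroptosis, was at 94.2 ± 8.32 FPKM in siFto and 98.4 ± 5.13 FPKM in siCtr (-0.07, adjusted p = 0.512). Gpx8 lies at chr13:113832971-113836596 in mm9.

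**Figure D3:**
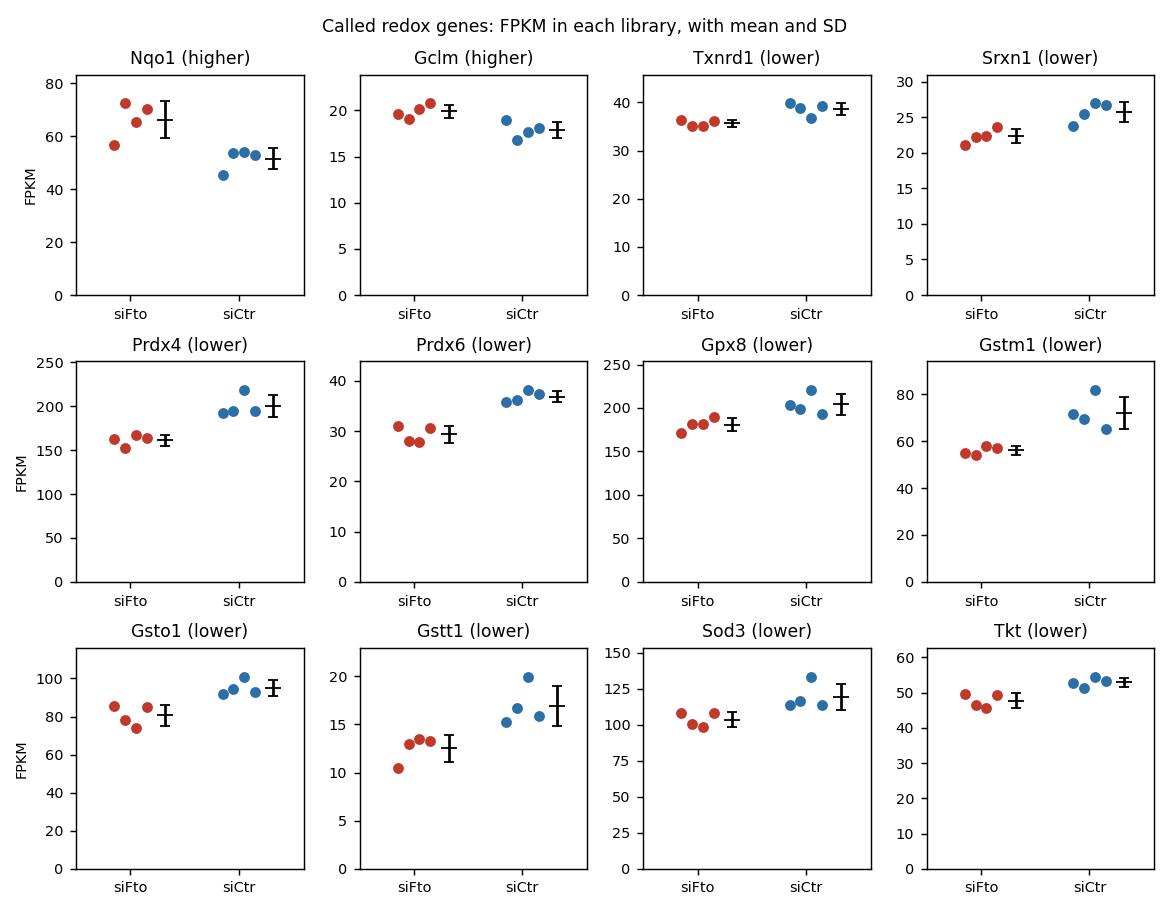
FPKM of the 12 called redox genes, each panel with the 4 siFto libraries in red left of the 4 siCtr libraries in blue, with the mean as a horizontal line and the SD as a bar. In each panel the 2 groups are apart, with the narrowest gaps for Gclm, Txnrd1 and Srxn1.

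The glutathione transferases, which conjugate glutathione to electrophiles, had 3 falls among 10 genes, and 7 were not called. Gstm1, a class mu transferase, had 55.1, 53.9, 58.1 and 57.1 FPKM in siFto libraries, against 71.5, 69.6, 81.7 and 65.2 FPKM in siCtr libraries. All siFto libraries lay below the controls, of which siCtr replicate 3 was the highest. Its log2 fold change was -0.35 (SE 0.06, limma adjusted p = 0.00357). Gstt1, a class theta transferase, had 10.5, 13.0, 13.5 and 13.3 FPKM in siFto libraries, against 15.2, 16.7, 19.9 and 15.9 FPKM in siCtr libraries. It fell the most of the redox genes, by 0.42 on the log2 scale (SE 0.09, adjusted p = 0.0122), with siFto replicate 1 the lowest of its group. Gsto1, the class omega transferase, which reduces rather than conjugates, had 85.7, 78.3, 74.2 and 84.9 FPKM in siFto libraries, against 91.9, 94.3, 101 and 93.0 FPKM in siCtr libraries. Its groups did not overlap, and its log2 fold change was -0.23 (SE 0.05, adjusted p = 0.0111). These 3 calls held under every alternative (adjusted p up to 0.0146 for Gstm1, 0.0418 for Gstt1 and 0.0358 for Gsto1). The loci in mm9 are chr3:107815168-107820891 for Gstm1, chr10:75246558-75261329 for Gstt1 and chr19:47929479-47939278 for Gsto1.

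Gstm5 and Gsta4 came closest to a call among the others. Gstm5 was at 57.5 ± 4.00 FPKM in siFto and 65.2 ± 4.27 FPKM in siCtr (-0.18, adjusted p = 0.0545), and Gsta4, which detoxifies the lipid peroxidation product hydroxynonenal, at 75.5 ± 3.93 FPKM in siFto and 85.0 ± 5.93 FPKM in siCtr (-0.17, adjusted p = 0.0552). Gstm5 was called lower without siCtr replicate 1 (adjusted p = 0.038) or siFto replicate 3 (0.0482), and Gsta4 without siCtr replicate 1 (0.0314) or siFto replicate 4 (0.0453). With a replicate block both were called lower (0.0176 for Gstm5 and 0.0452 for Gsta4), and with quantile normalization Gsta4 was (0.0192). The locus of Gstm5 overlaps 4933431E20Rik (up to 6.64 FPKM). Gstm1, Gstm2 and Gstm5 belong to a cluster of related class mu genes on chromosome 3 and can exchange reads, so how the change divides between them is uncertain. Gstm2 was at 86.2 ± 5.65 FPKM in siFto and 90.0 ± 7.57 FPKM in siCtr (-0.06, adjusted p = 0.549). Gstz1, which also acts in tyrosine breakdown and overlaps Pomt2 (up to 9.37 FPKM), was at 28.1 ± 1.69 FPKM in siFto and 30.7 ± 2.10 FPKM in siCtr (-0.13, adjusted p = 0.145). Of the membrane-bound pair, Mgst1 was the third most abundant redox gene at 504 ± 20.4 FPKM in siFto and 536 ± 35.5 FPKM in siCtr (-0.09, adjusted p = 0.271), and Mgst3 was at 131 ± 5.79 FPKM in siFto and 130 ± 7.75 FPKM in siCtr (0.02, adjusted p = 0.812).

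Gstp1, the class pi transferase, varied widely between libraries of the same group. It had 234, 188, 188 and 252 FPKM in siFto libraries, against 211, 181, 192 and 221 FPKM in siCtr libraries (0.09, SE 0.10, adjusted p = 0.578). Gstp2, its near-identical neighbour, had 45.3, 56.3, 59.9 and 63.1 FPKM in siFto libraries, against 44.4, 55.1, 64.4 and 58.0 FPKM in siCtr libraries. The replicate 1 library of either group was the lowest in Gstp2. The sum of both genes was 279, 244, 248 and 315 FPKM in siFto libraries, against 255, 236, 257 and 279 FPKM in siCtr libraries, which overlap.

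Among the enzymes that remove superoxide and peroxide directly, Sod3 fell and 3 genes were not called. Sod3, the extracellular superoxide dismutase, had 108, 100, 98.2 and 108 FPKM in siFto libraries, against 114, 117, 133 and 114 FPKM in siCtr libraries. The siCtr replicate 3 library was far above the other controls, and without it the call still held. The log2 fold change was -0.20 (SE 0.06, limma adjusted p = 0.0307). The call was lost without siCtr replicate 2, siFto replicate 2 or siFto replicate 3 (adjusted p up to 0.0837). It was also lost without the filter on low values (0.0709) and with a replicate block (0.0693). Sod2, the mitochondrial manganese enzyme, had 19.3, 20.3, 19.7 and 21.2 FPKM in siFto libraries, against 17.9, 17.9, 19.4 and 18.0 FPKM in siCtr libraries. Only siCtr replicate 3 overlapped the siFto range. Its log2 fold change of 0.13 had an adjusted p of 0.0555, and 0.0215 without that library (0.16). With all 8 libraries, Sod2 was called higher under median-ratio scaling (0.0236), quantile normalization (0.0313) and a mean FPKM of at least 5 (0.0478). Sod1, the abundant cytosolic enzyme, was at 250 ± 9.48 FPKM in siFto and 263 ± 16.7 FPKM in siCtr (-0.07, adjusted p = 0.353). Cat, peroxisomal catalase, was at 57.1 ± 2.18 FPKM in siFto and 55.2 ± 0.903 FPKM in siCtr (0.05, adjusted p = 0.379). Sod3 lies at chr5:52755043-52760977 in mm9.

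The pentose phosphate pathway, which reduces NADP+ in its oxidative branch, had 1 fall among 4 genes. Tkt, transketolase of the non-oxidative branch, had 49.7, 46.4, 45.7 and 49.2 FPKM in siFto libraries, against 52.7, 51.2, 54.4 and 53.2 FPKM in siCtr libraries. All siFto libraries were below the controls, with a log2 fold change of -0.15 (SE 0.04, limma adjusted p = 0.0228), and the call was lost without siCtr replicate 4, siFto replicate 2 or siFto replicate 3 (adjusted p up to 0.0657). G6pdx, glucose-6-phosphate dehydrogenase, the entry enzyme, was at 36.0 to 38.7 FPKM in siFto libraries and 39.1 to 43.1 FPKM in siCtr libraries. Its groups did not overlap, but the log2 fold change of -0.11 was not called (adjusted p = 0.0881), and its locus overlaps Ikbkg (up to 12.9 FPKM). Pgd, the next NADPH-producing enzyme, was at 52.6 ± 1.55 FPKM in siFto and 49.5 ± 2.11 FPKM in siCtr (0.09, adjusted p = 0.142), and was called higher without siCtr replicate 3 (0.12, adjusted p = 0.0441). Taldo1, transaldolase, was at 39.9 ± 2.94 FPKM in siFto and 36.9 ± 3.00 FPKM in siCtr (0.11, adjusted p = 0.27). Tkt lies at chr14:31362335-31387908 in mm9.

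**Figure D4:**
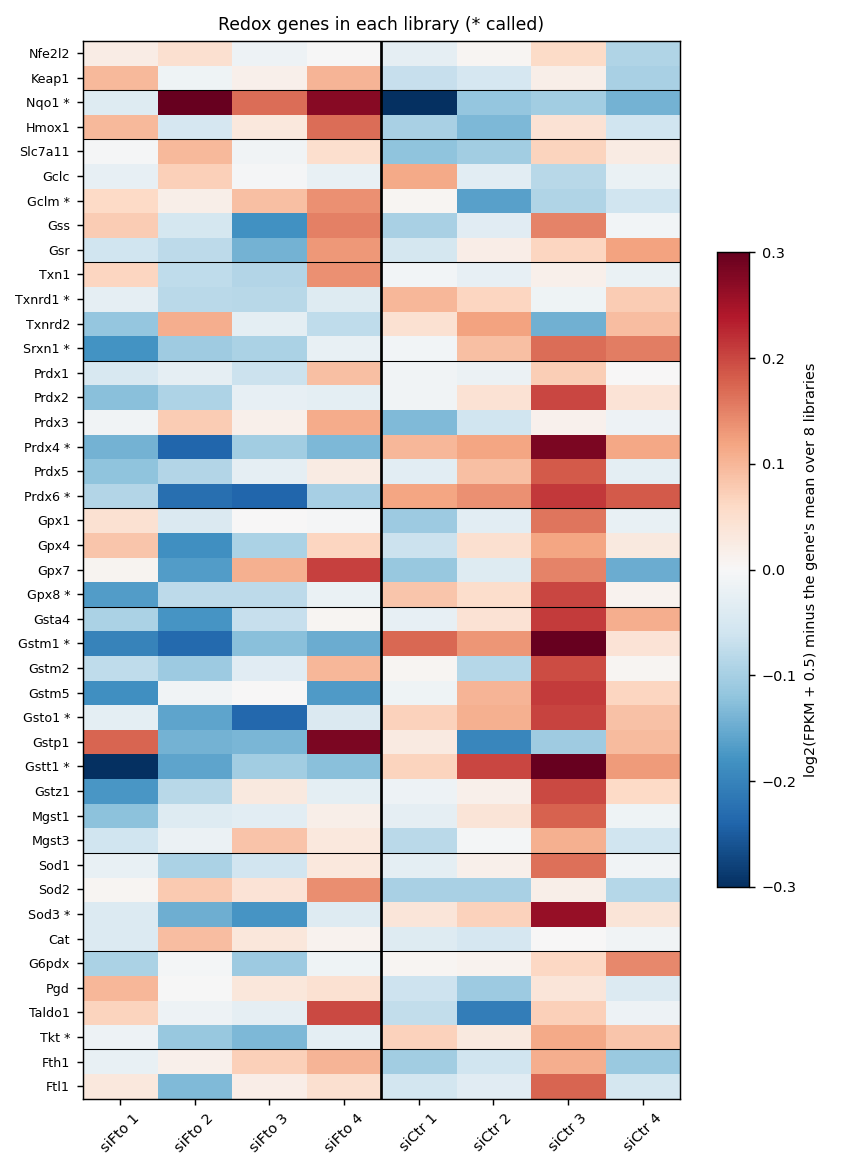
Each tested redox gene in each library as log2(FPKM + 0.5) minus the gene's mean over the 8 libraries, with red above and blue below that mean, siFto libraries left of the black line, siCtr libraries right of it, and stars on called genes. Colours end at -0.3 and 0.3, and the siCtr replicate 3 column is red for most genes, matching its place as the highest control for 36 of 43.

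Genes of the same pathways outside the 44 were read from 8 lists, of which 128 of 131 symbols were found and 105 were tested. Of these 6 rose and 12 fell (5.71% and 11.4%, against 6.97% and 12.3% of all tested genes). Among 14 tested partners and regulators of NRF2, Nfe2l1, the related factor NRF1 that controls proteasome genes, was at 119 ± 3.65 FPKM in siFto and 93.8 ± 3.31 FPKM in siCtr (0.35 on the log2 scale, limma adjusted p = 0.000273). The deposited status of Nfe2l1 was FAIL in siFto replicate 1 and OK in the other 7 libraries, and without siFto replicate 1 the log2 fold change was 0.34 (adjusted p = 0.00142). Bach1, the repressor that competes with NRF2 for its elements, was at 19.0 ± 0.710 FPKM in siFto and 21.3 ± 1.06 FPKM in siCtr (-0.16, adjusted p = 0.0343), a call that was lost under 8 alternatives (adjusted p up to 0.0934), among them the removal of any one of siCtr replicates 1, 2 and 4 and siFto replicates 2, 3 and 4. Among 20 tested other NRF2 targets Ptgr1, a reductase of lipid aldehydes and prostaglandins, fell and none rose (-0.21, adjusted p = 0.0259). That call was lost under 7 alternatives (adjusted p up to 0.0721), among them the removal of any one of siCtr replicates 2 and 4 and siFto replicates 1, 2 and 4.

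Glutathione genes outside the 44 had 1 rise and 1 fall among 18 tested. Chac1, which degrades glutathione, rose to 15.8 ± 1.87 FPKM in siFto, against 11.5 ± 1.47 FPKM in siCtr (0.44, adjusted p = 0.0104). Glrx, glutaredoxin, which removes glutathione from protein thiols, fell to 63.4 ± 2.30 FPKM in siFto, against 83.1 ± 3.16 FPKM in siCtr (-0.39, adjusted p = 0.000192). Both calls held under every alternative. Of 11 other thioredoxin and methionine sulfoxide genes, Msra, which repairs oxidized methionine, fell to 2.13 ± 0.482 FPKM in siFto, against 4.01 ± 0.383 FPKM in siCtr (-0.79, adjusted p = 0.00259). Of 8 other superoxide and peroxide genes, Nox4, an NADPH oxidase that makes hydrogen peroxide, and Aifm2, which protects from ferroptosis, fell (-0.39 and -0.24, adjusted p = 0.00362 and 0.0142), and Sesn2, a stress-induced sestrin, rose (0.22, adjusted p = 0.0336). The Sesn2 call was lost under 5 alternatives, including the removal of any one of siCtr replicates 2 and 3 and siFto replicates 1 and 4 (adjusted p up to 0.0884), and Aifm2 overlaps H2afy2.

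The list of other NADPH supply genes had 2 rises and 4 falls among 11 tested genes. These are 18.2% and 36.4%, against 6.97% and 12.3% of all tested genes. Some listed enzymes, such as Pgls, Rpe and Rpia, do not reduce NADP+ themselves, so the shares do not measure NADPH supply. Aldh1l2 and Mthfd2, both of mitochondrial one-carbon metabolism, rose to 27.9 ± 1.56 and 47.6 ± 5.44 FPKM in siFto, against 20.3 ± 2.80 and 35.8 ± 2.21 FPKM in siCtr (0.46 and 0.40, adjusted p = 0.0053 and 0.00568). H6pd, the endoplasmic reticulum counterpart of G6pdx, fell to 22.9 ± 0.722 FPKM in siFto, against 29.7 ± 0.735 FPKM in siCtr (-0.37, adjusted p = 0.00015). Idh2, the mitochondrial NADP+ isocitrate dehydrogenase, fell to 167 ± 7.16 FPKM in siFto, against 212 ± 9.15 FPKM in siCtr (-0.34, adjusted p = 0.000582). These 4 calls held under every alternative. The remaining falls, Pgls and Rpia of the pentose phosphate pathway, were named after their values were seen (-0.19 and -0.37, adjusted p = 0.0361 and 0.0228). Both calls were lost under some alternatives. Pgls lost its call without siCtr replicate 4 or any one siFto replicate (adjusted p up to 0.0916), without the filter on low values (0.0782) and without a variance trend (0.0558). Rpia lost its call without siFto replicate 2 or 4 (up to 0.0595) and without the filter on low values (0.0671).

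Of 11 tested iron handling genes, Ncoa4, the receptor that delivers ferritin for breakdown, was called higher (0.13, adjusted p = 0.046) and Steap3, an endosomal ferrireductase, lower (-0.17, adjusted p = 0.0234). The Ncoa4 call was lost under 10 of 16 alternatives, including the removal of any one library except siFto replicate 1 (adjusted p up to 0.108). The Steap3 call was lost without siCtr replicate 2 or siFto replicate 4 (up to 0.0699), and with a replicate block (0.0534). Of 12 tested genes of selenoproteins and their synthesis, Sepp1, secreted selenoprotein P, fell to 390 ± 11.5 FPKM in siFto, against 433 ± 10.9 FPKM in siCtr (-0.15, adjusted p = 0.017). With quantile normalization the adjusted p of Sepp1 was 0.0639, and with a replicate block it was 0.0559.

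Earlier results from these data had shown the 7-base words GACCTTA and ACCTTAA, which overlap in 6 bases, to be frequent in 3′ UTRs of genes lower with Fto siRNA. Their place in the redox genes is therefore a description. Read on the transcript strand of the longest annotated 3′ UTR in GENCODE M21 (GRCm38), either word was in 26.2% of 1233 tested genes called lower, 8.49% of 707 called higher and 11.3% of 7859 not called. Among the redox genes it was in 1 of 10 called lower (Srxn1), 1 of 2 called higher (Gclm) and 2 of 31 not called (Slc7a11 and Txn1). The stretches searched differ in length, which was not adjusted for. The median 3′ UTR of the redox genes was 843 bases for those called lower, 2464.5 for higher and 532 for not called. Over all tested genes these medians were 1283, 1567 and 1157 bases. The sites of the 2 called genes, which moved in opposite directions, are shown with the word in capitals, at chr2:152109870-152109899 for Srxn1 and chr3:122268723-122268752 for Gclm, both on the plus strand of GRCm38.
Srxn1 site: caaagaaagcaGACCTTAggaaacactgtc
Gclm site: tcctcgtgtttACCTTAAattccacccaag

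The other 9 redox genes that fell held neither word in that 3′ UTR. Of the called pathway genes outside the 44 named above, Msra and Nox4 held one, and Sepp1 was not matched to a 3′ UTR.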

How the data were processed

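RNA of 8 libraries, 4 siFto and 4 siCtr, was read as 1 deposited table per library. The submitters' processing notes name TopHat2 2.0.11, Cufflinks 2.2.1 and the build mm9, with annotation and strand not given in the sources used here. The deposited values are FPKM, scaled by the authors by transcript length and mapped fragments, beside an interval and a quantification status, per the file headers. FPKM are not counts, so no count test was run, and near-identical genes can exchange signal. The authors' compiled tables were not used here.

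On log2(FPKM + 0.5), limma 3.58.1 under R 4.3.3 was fitted with a variance trend to the 11398 genes whose mean FPKM reached 1. Tests were two-sided, adjusted by Benjamini-Hochberg over those genes, and called under 0.05. This scale understates the change of low genes. For Fto an exact permutation test over the 70 arrangements was added. The 44 genes, the 8 lists and the tests were chosen with earlier results of these data known. All 44 genes are named by role, with full values for called ones and for Nfe2l2 and Keap1, and from each list up to 4 called genes with the lowest p. Loci are mm9, counted from 1. Promoters came from RefSeq and 3′ UTRs of at least 50 bases from GENCODE M21. There were 16 alternatives: 2 pseudocounts, 2 filters, 2 scalings, a replicate block, no variance trend, and the removal of each library. Relative depth was 0.88 to 1.13. The deposited upper bound of a tested redox gene, taken as its highest over the libraries, lay a median of 5.45% above its FPKM, which covers counting error only.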

Additional observations from a re-analysis of the deposited data

Results flagged for a closer look

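Among 90 sets of 4 libraries checked, 1 per group for each redox gene and for Fto, 7 had a library far from the other 3 by Dixon's criterion. Chance gives about 1 in 20. Of the 7, 4 were siCtr libraries that stood apart in genes that passed or came close to the test. Nqo1 in siCtr replicate 1 was 45.4 FPKM, against 52.7 to 54.1 FPKM in the other controls. In 3 genes siCtr replicate 3 lay above its group: Prdx4 at 218 FPKM (192 to 195 in the other controls), Sod3 at 133 FPKM (others 114 to 117) and Sod2 at 19.4 FPKM (others 17.9 to 18.0). Ftl1 stood out there too, at 1456 FPKM (others 1242 to 1259). In the siFto group, Gstt1 in replicate 1 was 10.5 FPKM (others 13.0 to 13.5) and Ftl1 in replicate 2 was 1178 FPKM (others 1309 to 1335). Without siCtr replicate 3 the falls of Prdx4 and Sod3 kept their call, and Sod2 gained one.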

How the results depend on the processing

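Over 16 alternatives, 616 of 687 values for the tested redox genes kept their direction and side of the threshold, 35 values of 6 genes lost the call, 16 of 7 genes (Hmox1, Prdx2, Prdx3, Gsta4, Gstm5, Sod2 and Pgd) gained it and 20 of 8 uncalled genes changed sign. Redox genes called higher numbered 2, against 1 without a filter on low values and 5 with quantile normalization, and 1 to 4 on leaving out a library. Those called lower numbered 10, with 6 to 10 on leaving out a library, the fewest without siFto replicate 2. Calls of Nqo1, Prdx4, Prdx6, Gstm1, Gsto1 and Gstt1 held throughout. Sign changes were of values near 0: with median-ratio scaling Gss 0.0152, Gpx1 0.0195 and Ftl1 0.0041; with quantile normalization Gss 0.0252, Txnrd2 0.0017, Prdx1 0.0178 and Gpx1 0.0327. On leaving out a library the ranges were -0.0168 to 0.0493 for Gclc, -0.0547 to 0.0564 for Gss, -0.0239 to 0.0508 for Txn1, -0.0363 to 0.0534 for Gpx1, -0.0053 to 0.0593 for Mgst3 and -0.0368 to 0.0399 for Ftl1. The cause was not tested. Of 286 values for the 18 called pathway genes named beside them, 45 of 8 genes lost the call.

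Same-numbered libraries showed little shared deviation (correlations 0.07, -0.04, -0.19 and -0.09). Whether the numbers pair the libraries is not stated in the labels. These correlations cannot decide it, because they are taken over all tested genes together. Gstp1 ranked the replicates in the same order in both groups, whereas Gstp2 did not. Such an order in a single picked gene can arise by chance and does not show pairing. With a replicate block 1 redox gene was called higher and 9 lower, with 8 of the 12 calls kept. The number of libraries limits precision: the median SE of the redox genes was 0.05 on the log2 scale.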
